A study of Mus musculus with 21 samples.

Results

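Glucose enters heart muscle through membrane carriers, is split to pyruvate and lactate by the glycolytic enzymes, or is stored as glycogen and released again. This account covers 34 genes of those steps, chosen by name from the 19096 genes of the deposited gene matrix: 4 glucose carriers (uptake), 22 genes of glycolysis and its control (glycolysis) and 8 genes of glycogen synthesis and breakdown (glycogen). All 34 had enough reads to be tested. A second gene model that also carries the name Aldoa held almost no reads, was not tested and is not counted among them.

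The RNA came from 21 freeze-clamped hearts of male C57BL/6NJ mice, aged 8 to 10 weeks at the start. The study models HFpEF, heart failure in which ejection fraction is preserved, by joining diet-induced obesity to high blood pressure driven by renin. The groups used here were chow control (4 hearts, chow diet, no renin), chow renin (6 hearts, chow diet plus renin), high-fat control (6 hearts, a diet with 60% of its calories from fat, no renin) and high-fat renin (5 hearts, both). Renin was delivered by an adeno-associated virus (AAV-Renin), injected retro-orbitally 6 weeks before collection. The diet lasted 10 weeks. The series text gives the controls a null vector, whereas the sample titles call them novirus, so whether they carried an empty virus could not be settled. The sources used here do not name the promoter that drives renin or the tissue it was made in.

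As background, the main glucose carriers of heart muscle are GLUT4 (Slc2a4), which moves to the surface on an insulin signal, and GLUT1 (Slc2a1). Many glycolytic steps have several isoenzymes, one typical of muscle and others of liver, brain or many tissues, so isoenzymes of a step can be regulated separately. Glycogen is built from UDP-glucose (made by Ugp2) on a glycogenin primer (Gyg) by glycogen synthase (Gys1) and the branching enzyme (Gbe1), and is broken down by glycogen phosphorylase (Pygm, Pygb), which phosphorylase kinase (Phka1 and Phkb are subunits) switches on.

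The estimated reads of a library, in units of 10 to the power 6, ranged from 18.743 to 29.265, and the 4 chow control libraries (18.743 to 21.414) were shallower than all others (from 22.806). The 8 cardiomyocyte marker genes were all present, with a summed level of 46300 to 53220 CPM (reads per 10 to the power 6 reads of the library, scaled by TMM, edgeR's trimmed-mean factors) in high-fat renin, 52110 to 55160 in chow renin, 53720 to 62570 in high-fat control and 56650 to 68750 in chow control. A list of 15 central nervous marker genes, none of them at 0 in all hearts and 1, Aqp4, at 0 in some hearts outside chow renin, summed to 269.6 to 452 CPM in chow renin and to between 69.8 and 128 CPM in the other groups. Atrial transcripts stood out in 5 hearts (chow control 3, chow renin 1 and 3, high-fat control 3, high-fat renin 3), whose mean log2 CPM over the 7 tested atrial genes was above 5. The 5 fibroblast marker genes summed to 768 to 1184 CPM in high-fat renin, 479.1 to 1127 CPM in high-fat control, 464.5 to 693 CPM in chow renin and 479 to 854 CPM in chow control. Every high-fat renin heart was above every chow renin heart in that sum. As a mean log2 CPM, the fibroblast score was 6.80 to 7.36 in high-fat renin, and of the chow control hearts it was 6.82 in number 3, an atrial heart, and 5.89 to 6.07 in the others. Of the high-fat control hearts it was 7.055 and 7.23 in numbers 3 and 6, and 5.94 to 6.19 in the others. The part of this difference in the results was not tested. Ren1, the mouse's own renin gene, had at most 5 reads in any library, so heart RNA does not check which animals received the virus. The series text gives 4 to 6 mice a group, so p-values measure the spread between these hearts, and in bulk tissue fewer cells of a type and less RNA per cell cannot be told apart.

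On the TPM scale, which corrects for transcript length, the most abundant of the 34 genes averaged over all hearts were Gapdh (1678 TPM), Aldoa (1326), Ldhb (720), Eno3 (642), Pkm (531) and Pgam2 (495), all enzymes of aldolase and the steps after it. Neighbours in that order overlapped between hearts: Gapdh ranged from 1348 to 2137 TPM and Aldoa from 1140 to 1520 TPM, and Ldhb ranged from 595 to 856.5 TPM and Eno3 from 500.4 to 835 TPM. The hexokinases stood much lower, at 50.5 TPM for Hk2 and 39.0 TPM for Hk1. GLUT4 averaged 119 TPM, against 7.13 TPM for Slc2a1, 1.37 TPM for Slc2a12 and 1.30 TPM for Slc2a3. Pfkfb4 was the least abundant member, at 1.12 TPM.

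Differences were tested with edgeR's quasi-likelihood F test over all 21 libraries, with Benjamini-Hochberg adjustment over 15216 genes, and a gene is called where its adjusted p was under 0.05. High-fat renin versus chow control gave 10 called genes of the 34, 4 higher and 6 lower, where 8.29% of all genes tested were called (4.05% higher, 4.25% lower). Chow renin versus chow control gave 7, 3 higher and 4 lower, where 13.5% of all genes were called (10.1% higher, 3.36% lower). High-fat control versus chow control gave 1, lower, where 0.0657% of all genes were called (0.0131% higher, 0.0526% lower). There, 8 of the 34 had an unadjusted p under 0.05, as did 1668 of the 15216 genes. These 3 comparisons share the chow control hearts. High-fat renin versus high-fat control gave 10, 5 higher and 5 lower, where 11.1% of all genes were called (6.07% higher, 5.08% lower). High-fat renin versus chow renin gave 17, 11 higher and 6 lower, where 22.6% of all genes were called (9.8% higher, 12.8% lower). The interaction, which asks whether the renin effect differs between the diets, gave 8, 6 positive and 2 negative, where 10.4% of all genes were called (3.14% positive, 7.3% negative). The median log2 fold change over the 34 genes was 0.02 in high-fat renin versus chow control and -0.13 in chow renin versus chow control, while that of all genes was 0.01 and -0.03, and in either comparison called members lay on both sides.

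**Figure D1:**
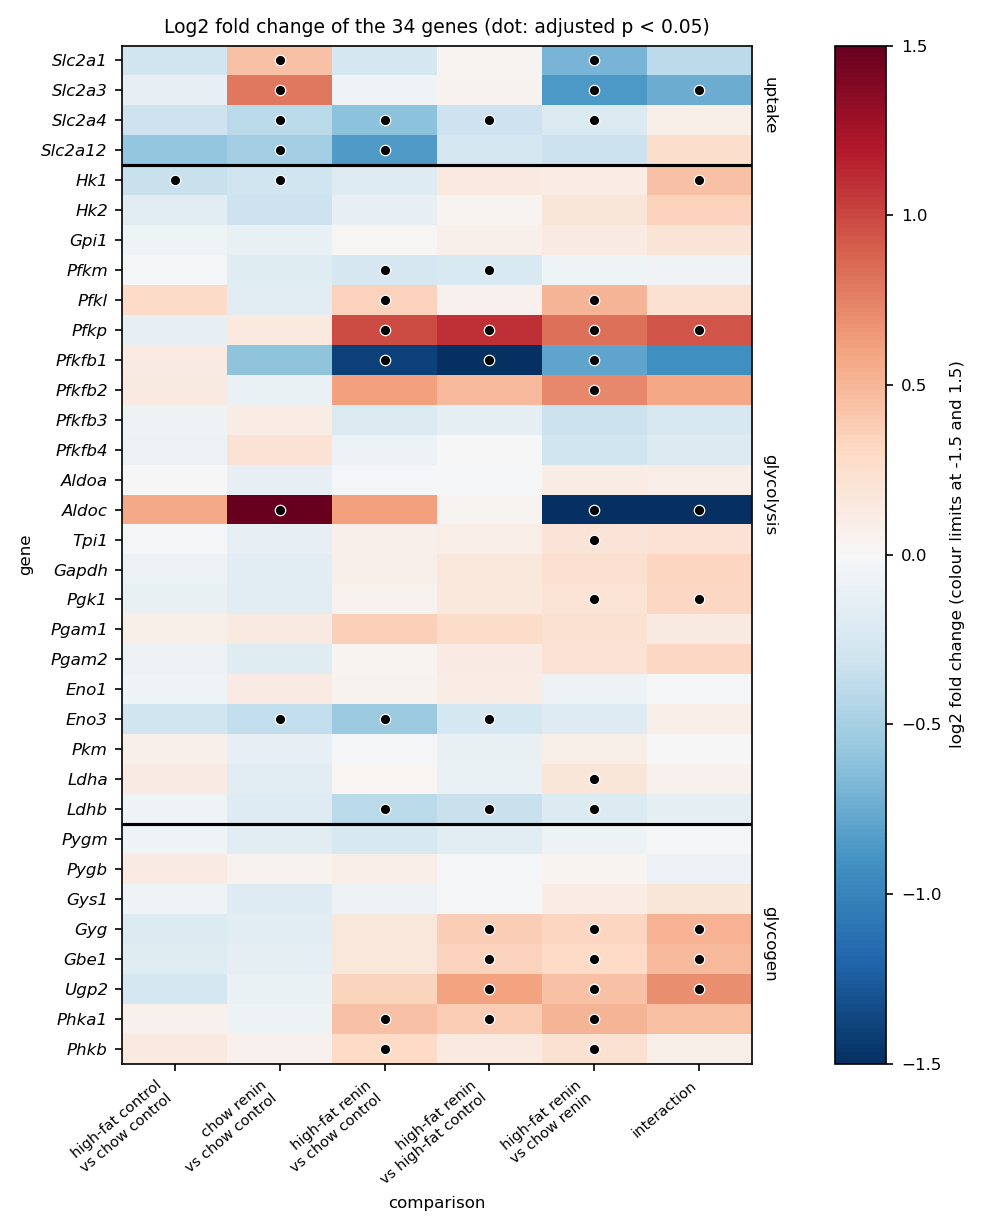
Log2 fold change (colour) of the 34 genes (rows, split into uptake, glycolysis and glycogen) in each comparison (columns); a dot marks a gene called at an adjusted p under 0.05 and colours are limited at -1.5 and 1.5. The high-fat renin columns hold dots on Slc2a4, Pfkp, Pfkfb1, Ldhb and Phka1, while the high-fat control column holds 1 dot, on Hk1.

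Calls depended on whether scores of marker genes were in the fit. With the mean log2 level of cardiomyocyte markers as a covariate, none of the 34 genes was called in high-fat renin versus either control group. The same held with a circadian clock score as the covariate. That score is the mean log2 level of 8 repressor-side clock genes minus that of 5 activator-side clock genes. With the central nervous score as covariate, none was called in chow renin versus chow control, high-fat renin versus chow renin or the interaction, while 9 of the 10 remained in high-fat renin versus chow control and 9 of the 10 versus high-fat control. The shares of all genes called in these covariate fits are not given here, so the losses are not read as particular to the 34 genes. A lost call was not always a smaller difference. Versus high-fat control, the log2 fold changes with the cardiomyocyte covariate were -1.31 for Pfkfb1, 0.93 for Pfkp, 0.60 for Ugp2, 0.42 for Gbe1, 0.41 for Gyg and 0.26 for Phka1, beside -1.52, 1.09, 0.60, 0.35, 0.37 and 0.38 without it. Those of Slc2a4, Pfkm, Eno3 and Ldhb were -0.058, -0.072, -0.065 and -0.17 with it, beside -0.31, -0.23, -0.27 and -0.34 without. With the clock covariate those of Pfkfb1, Ugp2, Gbe1, Gyg and Phka1 were -1.01, 0.30, 0.26, 0.23 and 0.16. These scores differ between the groups themselves, so they and the groups cannot be told apart. Without the 5 hearts with atrial transcripts the counts were 7, 5, 0, 10, 9 and 5 in the order given above. Leaving out single hearts moved the count for high-fat renin versus chow control from 10 to 6 (without chow control 2 or 4, or high-fat renin 2 or 5), that for high-fat renin versus high-fat control to 6 (without high-fat renin 1), and that for the interaction from 8 to 4 (without chow control 1). Versus chow renin the count went from 17 to 8 without high-fat renin 1, to 10 without high-fat renin 5, and to 11 without high-fat renin 2 or any of chow renin 1, 3, 4 and 5.

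Of the 4 carriers, GLUT4 and GLUT12 fell in both renin groups relative to chow control, and Slc2a1 and Slc2a3 rose in chow renin. The diet alone gave no called carrier with edgeR and 1, lower, with DESeq2, whose share over all genes is not given here. Of the 4 carriers, 3 had an unadjusted p under 0.05 with edgeR, as did 1668 of the 15216 genes tested. Slc2a4 (chr11:69942539-69948188, minus strand, GRCm38), the insulin-responsive carrier, stood at 381, 390, 315 and 370 CPM in the 4 chow control hearts. It stood at 230, 207, 260, 243 and 245 CPM in the 5 high-fat renin hearts. In chow renin the lowest, median and highest values were 252, 276 and 294 CPM, and in high-fat control they were 243, 297 and 332 CPM. Every heart with renin on either diet was below every chow control heart, whereas high-fat renin overlapped high-fat control. The log2 fold change of Slc2a4 versus chow control was -0.62 ± 0.08 (SE) in high-fat renin (edgeR adjusted p = 0.000194) and -0.40 ± 0.08 in chow renin (adjusted p = 0.000828), and high-fat control stood at -0.31 (adjusted p = 0.138; 0.0482 with DESeq2). Against high-fat control, high-fat renin was lower by -0.31 (adjusted p = 0.0124), and versus chow renin by -0.22 (adjusted p = 0.0413). The last call was lost without any 1 of 6 hearts (chow renin 2, 4 or 5, high-fat renin 1, 2 or 5), at adjusted p values up to 0.131. The interaction for Slc2a4 was 0.09 (adjusted p = 0.685), so no difference in the renin effect between the diets was detected. With the cardiomyocyte score as a covariate the difference between high-fat renin and chow control was -0.245 (adjusted p = 0.571).

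Slc2a12, which encodes GLUT12, a second carrier able to respond to insulin, was at 8.42, 10.3, 8.15 and 9.74 CPM in chow control and at 4.17, 4.17, 5.78, 5.86 and 5.37 CPM in high-fat renin. The groups did not overlap. Its log2 fold change was -0.85 ± 0.16 (SE; adjusted p = 0.00232 by edgeR) in high-fat renin and -0.53 (adjusted p = 0.0199) in chow renin, where the range was 5.04 to 8.31 CPM. The chow renin call was lost without chow control 2 or 4 or chow renin 1, with an adjusted p of up to 0.0993. High-fat control ranged from 4.65 to 7.67 CPM, below every chow control heart, with a log2 fold change of -0.58 that did not pass (adjusted p = 0.141).

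Slc2a1, the constitutive carrier of most tissues and of the vessels of the brain, was at 24.65, 27.9, 23.6 and 24.8 CPM in chow control and between 28.8 and 38.1 CPM in chow renin (median 34.3). Every chow renin heart was above every heart of the 3 other groups, since high-fat control did not exceed 23.2 CPM and high-fat renin held 24.65, 20.8, 22.8, 15.8 and 21.4 CPM. The log2 fold change in chow renin versus chow control was 0.44 ± 0.10 (SE; adjusted p = 0.00359 by edgeR), and high-fat renin versus chow renin was -0.69 (adjusted p = 5.96e-06). Slc2a3, the high-affinity carrier typical of neurons and leukocytes, was at 3.14, 3.89, 4.78 and 3.93 CPM in chow control and between 5.67 and 8.28 CPM in chow renin (median 6.81). High-fat renin held 2.99, 3.29, 4.92, 3.91 and 3.59 CPM of Slc2a3. Its log2 fold change was 0.79 ± 0.15 (SE; adjusted p = 0.000451 by edgeR) in chow renin versus chow control, and its interaction was -0.74 (adjusted p = 0.0191; 0.0564 without chow control 1). Without the 5 hearts with atrial transcripts the chow renin call of Slc2a1 was lost (adjusted p = 0.0558). The chow renin hearts are also those whose central nervous markers summed to 269.6 CPM or more, and with that score as a covariate the chow renin difference was 0.31 (adjusted p = 0.848) for Slc2a1 and -0.30 (adjusted p = 0.895) for Slc2a3.

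**Figure D2:**
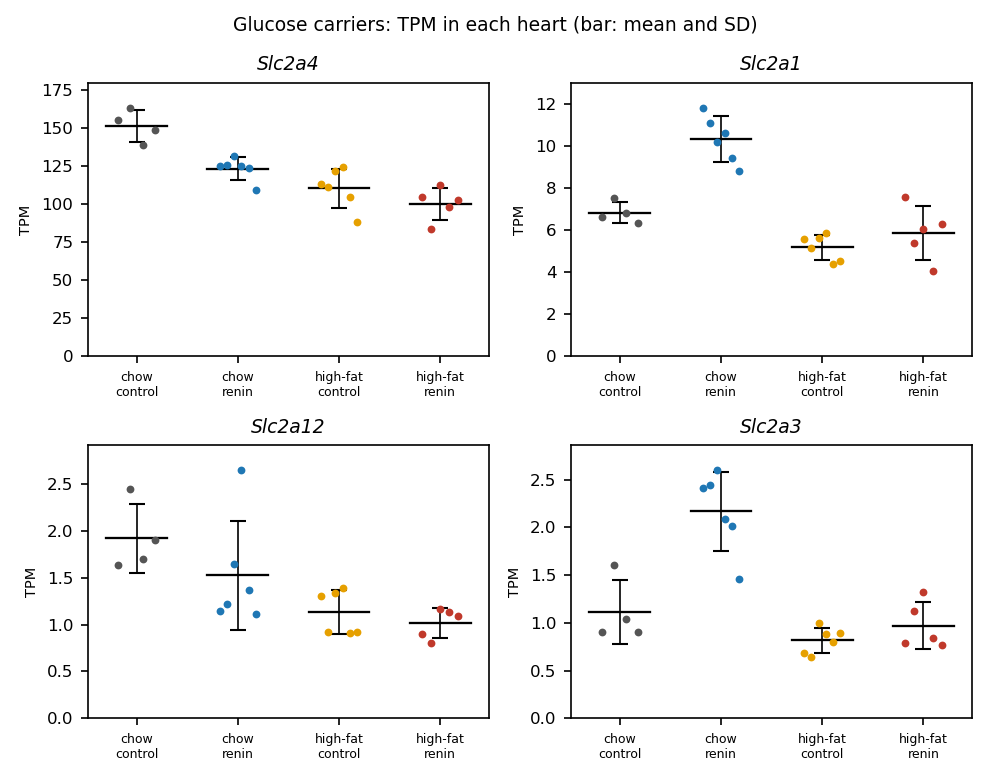
TPM of the 4 glucose carriers in each heart (points) by group, with the mean and SD as bars. Slc2a4 lies above 138 TPM in all chow control hearts and below 132 TPM in all others, while Slc2a1 is highest in the 6 chow renin hearts.

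At the entry to glycolysis, Hk1, the hexokinase of many tissues, was called lower by edgeR in chow renin and in high-fat control, and Hk2, the insulin-regulated hexokinase of muscle, was called in no comparison. Hk1 stood at 208, 221, 188 and 186 CPM in chow control hearts. It ranged from 155 to 171 CPM in chow renin and from 141 to 170 CPM in high-fat control, with high-fat renin at 200.1, 175, 166, 164 and 170 CPM. All hearts of chow renin and high-fat control were below all chow control hearts. Chow renin differed from chow control in Hk1 by a log2 value of -0.30 ± 0.07 (SE; adjusted p = 0.00202 by edgeR). In high-fat control it was -0.34 ± 0.07 with an edgeR adjusted p of 0.0499. That edgeR call was lost in 9 of 10 fits that left out 1 heart (all but the one without high-fat control 4), at adjusted p values up to 0.288. With DESeq2 the difference of high-fat control from chow control was -0.336 (adjusted p = 0.00175). High-fat renin was called lower in Hk1 than chow control with DESeq2 (-0.20, adjusted p = 0.0464) but not with edgeR. The interaction for Hk1 was 0.44 (edgeR adjusted p = 0.00154), the renin effect being -0.30 on chow and 0.14 (adjusted p = 0.144) on the high-fat diet. Hk2 ranged from 263 to 462 CPM over all hearts, with a smallest adjusted p of 0.0793, and Gpi1, the isomerase of the next step, from 472 to 599.5 CPM, with a smallest adjusted p of 0.0879.

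At the phosphofructokinase step, the main control point of glycolysis, the muscle gene fell in high-fat renin relative to chow control, and the liver and platelet genes rose. Pfkm, the muscle isoenzyme, was at 1153, 1121, 1088 and 1241 CPM in chow control and at 879.5, 979, 1075, 1024 and 877 CPM in high-fat renin, without overlap. Its log2 fold change was -0.25 ± 0.07 (SE; adjusted p = 0.0352 by edgeR) versus chow control and -0.23 ± 0.07 (adjusted p = 0.0272) versus high-fat control, whose hearts ranged from 997 to 1291 CPM. The first call was lost without any 1 of 6 hearts (chow control 1, 2 or 4, high-fat renin 1, 2 or 5; adjusted p up to 0.139) and the second without any 1 of 5 (high-fat control 2 or 5, high-fat renin 1, 2 or 5; adjusted p up to 0.1). Pfkl, the liver isoenzyme, held 157, 164, 146 and 144 CPM in chow control and 222.5, 196, 177, 180.2 and 195 CPM in high-fat renin, again without overlap. Its log2 fold change was 0.35 ± 0.10 (SE; adjusted p = 0.0351 by edgeR) versus chow control and 0.51 (adjusted p = 0.000166) versus chow renin, where it ranged from 123 to 159 CPM. Against high-fat control, which ranged from 146 to 233 CPM, it was 0.06 (adjusted p = 0.73). The call of Pfkl versus chow control was lost without any 1 of the 4 chow control hearts or of high-fat renin 1, 2 and 5 (adjusted p up to 0.116), and it was 0.0794 without the 5 hearts with atrial transcripts.

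Pfkp, the platelet isoenzyme (chr13:6579768-6648777, minus strand, GRCm38), rose most of the 34 genes in high-fat renin against either control group. It stood at 66.0, 58.4, 59.6 and 49.3 CPM in chow control and between 47.7 and 59.0 CPM in high-fat control. In high-fat renin it stood at 185, 112, 72.1, 79.7 and 125 CPM. All 5 hearts were above both control groups, and hearts 1, 2 and 5 stood well above hearts 3 and 4, which lay near the chow renin range of 51.5 to 72.8 CPM. The log2 fold change was 0.97 ± 0.20 (SE; adjusted p = 0.00524 by edgeR) versus chow control, 1.09 ± 0.17 (adjusted p = 0.0013) versus high-fat control and 0.83 ± 0.17 (adjusted p = 0.00142) versus chow renin. The interaction was 0.95 ± 0.25 (adjusted p = 0.0185; 0.053 without chow control 1), while renin on chow gave 0.14 (adjusted p = 0.71). Hearts 1, 2 and 5 also had the lowest clock scores of the group (2.37, 2.96 and 2.98, beside 3.335 and 3.28 in hearts 3 and 4) and the lowest cardiomyocyte scores (11.9 in each, beside 12.0 in hearts 3 and 4). Their endothelial scores were the highest of the group (7.29, 7.24 and 7.33, beside 7.05 and 7.09), and their red cell scores (5.285, 5.05 and 4.75, beside 5.80 and 5.71) and smooth muscle scores (4.095, 4.53 and 4.44, beside 5.12 and 5.31) were the lowest. Their atrial scores (2.78, 2.55 and 2.54, beside 6.33 and 3.06) and fat cell scores (-0.67, -0.23 and -0.83, beside 2.47 and -0.105) were the lowest as well. Ugp2 and Gyg were split between the same hearts. The part of the endothelial, red cell, smooth muscle and fat cell scores in the split was not tested. With the clock score as a covariate the difference from high-fat control was 0.57 (adjusted p = 0.182) and the interaction 0.96 (adjusted p = 0.000221), and with the cardiomyocyte score the former was 0.93 (adjusted p = 0.2).

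The 4 Pfkfb genes encode bifunctional enzymes that make or remove the strongest activator of phosphofructokinase. Pfkfb1, known from liver and muscle, fell most of the 34 genes in high-fat renin against either control group. It was at 17.9, 15.8, 11.9 and 17.6 CPM in chow control, between 11.34 and 24.3 CPM in high-fat control (median 16.85), and at 3.08, 3.05, 6.75, 11.27 and 5.615 CPM in high-fat renin. Chow renin lay between, at 7.97 to 13.0 CPM. The log2 fold change of Pfkfb1 was -1.40 ± 0.30 (SE; adjusted p = 0.00845 by edgeR) versus chow control and -1.52 ± 0.28 (adjusted p = 0.00259) versus high-fat control, with no overlap in either case. Against chow renin it was -0.79 (adjusted p = 0.0459), a call that 9 of 11 fits without 1 heart lost (all but those without chow renin 5 or high-fat renin 4; adjusted p up to 0.115). Pfkfb2, the heart isoenzyme that insulin activates by phosphorylation, stood at 74.2, 83.3, 68.1, 46.1 and 78.7 CPM in high-fat renin and between 37.0 and 57.7 CPM in chow renin, a log2 fold change of 0.72 (edgeR adjusted p = 0.0169). The groups overlapped. That call was lost without chow renin 1 or high-fat renin 1 (adjusted p up to 0.0513) and without the 5 hearts with atrial transcripts, and versus chow control Pfkfb2 was at 0.61 with an adjusted p of 0.112. Pfkfb3 (10.0 to 18.1 CPM) and Pfkfb4 (2.38 to 4.63 CPM) had smallest adjusted p values of 0.0544 and 0.139 with edgeR, and DESeq2 called Pfkfb3 lower in high-fat renin than in chow renin (-0.33, adjusted p = 0.0394).

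**Figure D3:**
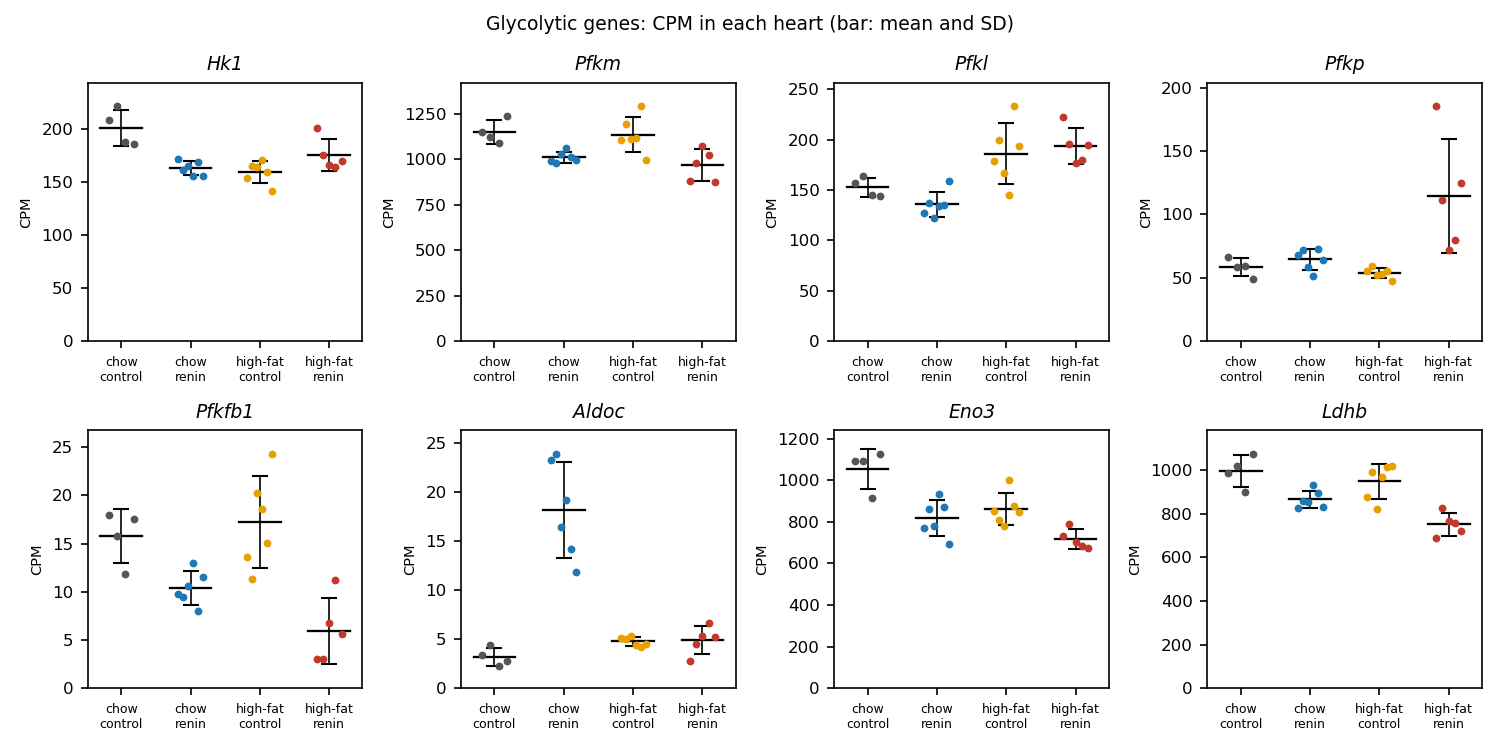
CPM of 8 glycolytic genes in each heart (points) by group, with the mean and SD as bars. Pfkp reaches 185 CPM and Pfkfb1 is as low as 3.05 CPM in high-fat renin, while Aldoc is above 11 CPM in all 6 chow renin hearts and below 7 CPM elsewhere.

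Of the aldolases, the brain isoenzyme Aldoc had the largest change of any of the 34 genes. Aldoc (chr11:78322968-78327781, plus strand, GRCm38) was at 3.44, 4.39, 2.23 and 2.81 CPM in chow control and between 11.8 and 23.9 CPM in chow renin (median 17.7), a log2 fold change of 2.50 ± 0.23 (SE; adjusted p = 5.64e-08 by edgeR). High-fat control ranged from 4.18 to 5.34 CPM and high-fat renin held 2.78, 4.52, 5.35, 6.63 and 5.23 CPM, so the interaction was -2.45 ± 0.31 (adjusted p = 7.7e-06). Aldoc is also a gene of astrocytes. With the central nervous score, which is highest in the chow renin hearts, as a covariate the chow renin difference was 0.83 (adjusted p = 0.736). Aldoa, the muscle isoenzyme, ranged from 1640 to 2098 CPM and was called in no comparison (smallest adjusted p 0.229), and Aldoc made up at most 0.837% of the summed TPM of Aldoa and Aldoc in any heart.

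Below aldolase, Eno3 and Ldhb were the members called in a comparison with a control group, both lower in high-fat renin. Eno3, muscle enolase, was at 1090, 1090, 913 and 1127 CPM in chow control and at 731, 791, 700.5, 686 and 673 CPM in high-fat renin, a log2 fold change of -0.56 ± 0.09 (SE; adjusted p = 0.000652 by edgeR) without overlap. In chow renin (691.5 to 935 CPM) it was -0.37 ± 0.08 (adjusted p = 0.00294). High-fat control ranged from 777.5 to 1001 CPM, and high-fat renin was below it by -0.27 (adjusted p = 0.0329), a call lost without any 1 of high-fat control 4 or 5 or high-fat renin 1, 3 or 5 (adjusted p up to 0.0944). Ldhb, the heart subunit of lactate dehydrogenase, was at 988, 1019, 899 and 1076 CPM in chow control and at 687.5, 825, 770, 760 and 720.3 CPM in high-fat renin. The groups did not overlap, and the log2 fold change was -0.40 ± 0.07 (SE; adjusted p = 0.00206 by edgeR). Against high-fat control (821 to 1018 CPM) Ldhb was lower by -0.34 ± 0.07 (adjusted p = 0.00304), and versus chow renin by -0.20 (adjusted p = 0.0292; up to 0.074 without chow renin 4 or high-fat renin 1 or 5). In chow renin versus chow control Ldhb was called lower with DESeq2 (-0.19, adjusted p = 0.0395) but not with edgeR. With the cardiomyocyte score as a covariate the differences of high-fat renin from chow control were -0.26 for Eno3 (adjusted p = 0.6) and -0.155 for Ldhb (adjusted p = 0.702).

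Tpi1, Pgk1 and Ldha were called higher in high-fat renin than in chow renin, by small amounts. Tpi1, triose phosphate isomerase, was at 637, 645, 536, 503.5 and 582 CPM in high-fat renin and between 480.3 and 527 CPM in chow renin, a log2 fold change of 0.19 (edgeR adjusted p = 0.0387). Pgk1, phosphoglycerate kinase, was at 378.5, 361, 295, 306 and 362 CPM and between 278 and 311 CPM (0.21, adjusted p = 0.0248). Ldha, the muscle subunit of lactate dehydrogenase, was at 567.8, 479, 498, 524 and 479.8 CPM and between 418 and 478 CPM, without overlap (0.19, adjusted p = 0.0465). The chow control hearts lay at 520.3 to 574 CPM for Tpi1, 301 to 350.1 CPM for Pgk1 and 451.5 to 534 CPM for Ldha, within or near the high-fat renin range. These calls held in few of the 11 fits without 1 heart: those without chow renin 2 or high-fat renin 3 or 4 for Tpi1 and Pgk1, without chow renin 4 also for Pgk1, and without chow renin 6 or high-fat renin 2 or 5 for Ldha. All 3 were lost with upper-quartile in place of TMM scaling. Pgk1 also had an interaction of 0.31 (edgeR adjusted p = 0.0348), lost with that scaling and in 10 of 21 fits without 1 heart (chow control 1 or 2, chow renin 1, 3, 5 or 6, high-fat control 3, high-fat renin 1, 2 or 5; adjusted p up to 0.12).

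Gapdh (1853 to 3119 CPM), Pgam1 (56.6 to 118 CPM), Pgam2 (246 to 410.1 CPM), Eno1 (140 to 189.5 CPM) and Pkm (1044 to 1405 CPM) were called in no comparison, with smallest adjusted p values of 0.103, 0.112, 0.116, 0.242 and 0.224. Gapdh is uncertain, since 150 other gene models match its leading transcript at 90% identity over at least 50% of its length and together held 11.2% as many reads as Gapdh itself. For the other members such copies held at most 0.69% as many reads as the member.

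Of the 8 glycogen genes, 4 rose in high-fat renin relative to high-fat control (Ugp2, Gyg, Gbe1 and Phka1), where 6.07% of all genes were called higher. Relative to chow renin 5 rose (those and Phkb), where 9.8% of all genes did, and relative to chow control 2 (Phka1 and Phkb), where 4.05% did. With edgeR none was called lower in these 3 comparisons, whereas DESeq2 called 1, Pygm, lower relative to chow control. With edgeR and with DESeq2, 0 were called in chow renin or in high-fat control relative to chow control. An unadjusted p under 0.05 with edgeR was found there in 2 and 1 of the 8, beside 3821 and 1668 of the 15216 genes tested. Ugp2, which makes the UDP-glucose that glycogen is built from, was at 191, 190, 183 and 168 CPM in chow control, between 139 and 215 CPM in chow renin, and between 112 and 178 CPM in high-fat control (median 159). It stood at 292, 226, 191, 158 and 286 CPM in high-fat renin. Hearts 1, 2 and 5 were above all others of the study, and hearts 3 and 4 lay within the range of the other groups. The log2 fold change was 0.60 ± 0.14 (SE; adjusted p = 0.0112 by edgeR; 0.0587 without high-fat renin 1) versus high-fat control, 0.44 (adjusted p = 0.0323) versus chow renin and 0.34 (adjusted p = 0.205) versus chow control. The interaction was 0.70 (adjusted p = 0.0346), lost in 13 of 21 fits without 1 heart (chow control 1, 2 or 3, any chow renin heart but 2, high-fat control 3 or 6, high-fat renin 1, 2 or 5; adjusted p up to 0.101). The call versus chow renin was lost in 8 of 11 (all but those without chow renin 2 or high-fat renin 3 or 4; up to 0.167), and both were lost with upper-quartile scaling.

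Gyg, the glycogenin primer, was at 128, 138, 136 and 129 CPM in chow control, between 97.0 and 130.0 CPM in high-fat control, between 106.5 and 130.1 CPM in chow renin and at 166, 159, 126, 126 and 165.5 CPM in high-fat renin. Its log2 fold change was 0.37 ± 0.08 (SE; adjusted p = 0.00703 by edgeR) versus high-fat control, 0.32 (adjusted p = 0.00642) versus chow renin and 0.16 (adjusted p = 0.288) versus chow control, and its interaction was 0.52 ± 0.12 (adjusted p = 0.00497). These calls were kept in all fits without 1 heart, although hearts 3 and 4 overlapped both other groups. Gbe1, the branching enzyme, was at 48.0, 54.5, 48.2 and 45.0 CPM in chow control, at 32.7 to 50.5 CPM in high-fat control and at 55.8, 55.2, 54.2, 50.3 and 59.8 CPM in high-fat renin. Its high-fat renin hearts were all above the 6 chow renin hearts (41.2 to 49.0 CPM). Gbe1 had a log2 fold change of 0.35 ± 0.08 (SE; adjusted p = 0.00927 by edgeR) versus high-fat control and 0.30 ± 0.08 (adjusted p = 0.0098) versus chow renin, and the interaction was 0.48 ± 0.12 (adjusted p = 0.00997). Without the 5 hearts with atrial transcripts the adjusted p values of the last 2 were 0.0685 and 0.0722. Against chow control the difference was 0.17 (adjusted p = 0.267).

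Phka1, the muscle regulatory subunit of phosphorylase kinase, was at 35.2, 32.4, 25.5 and 28.3 CPM in chow control and at 53.4, 42.1, 35.4, 33.8 and 40.5 CPM in high-fat renin, which overlapped. Chow renin ranged from 25.4 to 34.5 CPM and high-fat control from 27.05 to 36.2 CPM. Its log2 fold change was 0.43 ± 0.12 (SE; adjusted p = 0.0332 by edgeR) versus chow control, 0.38 (adjusted p = 0.0323) versus high-fat control and 0.51 ± 0.11 (adjusted p = 0.00167) versus chow renin. The third call was kept in every fit without 1 heart, and the first 2 were each lost in 6 of them, at adjusted p values up to 0.116 (without chow control 2, 3 or 4, or high-fat renin 1, 2 or 5) and 0.154 (without high-fat control 4, 5 or 6, or high-fat renin 1, 2 or 5). Phkb, the other regulatory subunit, was at 44.9, 47.5, 37.7 and 42.1 CPM in chow control and at 51.7, 58.9, 53.8, 46.7 and 53.1 CPM in high-fat renin, a log2 fold change of 0.30 (edgeR adjusted p = 0.0412). Chow renin ranged from 38.6 to 52.1 CPM and high-fat control from 41.7 to 53.8 CPM, and versus chow renin the log2 fold change was 0.23 (adjusted p = 0.0369). The first call of Phkb held in 1 of 9 fits without 1 heart (without high-fat renin 4) and the second in 2 of 11 (without chow renin 6 or high-fat renin 4), and both were lost without the 5 hearts with atrial transcripts (adjusted p = 0.183 and 0.328). Of the TPM of Phkb, 60.6% lay in a 6-exon transcript annotated as non-coding and 17.0% in the 32-exon coding one, so its level is not that of the full-length messenger alone.

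The remaining glycogen genes were called in no comparison with edgeR. Gys1, muscle glycogen synthase, ranged from 97.2 to 143 CPM (smallest adjusted p 0.107). Pygm, muscle glycogen phosphorylase, was at 682, 663, 647 and 713 CPM in chow control and at 505.4, 604, 618, 590 and 555 CPM in high-fat renin, without overlap, a difference of -0.24 that did not pass with edgeR (adjusted p = 0.0532) and passed with DESeq2 (-0.24, adjusted p = 0.0254). Pygb, the brain isoenzyme of the phosphorylase, ranged from 688 to 1151 CPM, and its smallest adjusted p was 0.626.

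**Figure D4:**
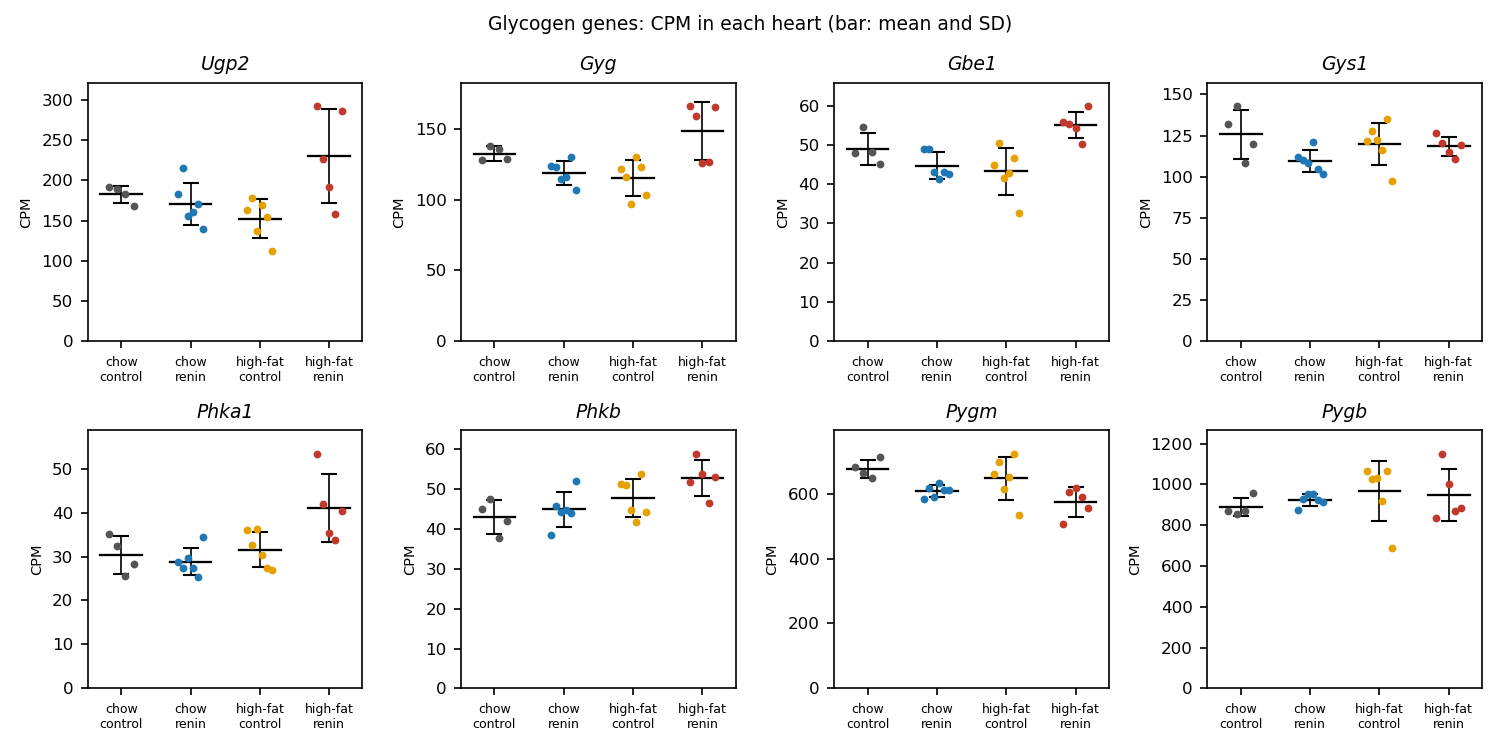
CPM of the 8 glycogen genes in each heart (points) by group, with the mean and SD as bars. Ugp2 and Gyg are split within high-fat renin, with hearts 1, 2 and 5 high and hearts 3 and 4 near the other groups, while Gys1, Pygm and Pygb have no difference called by edgeR.

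Isoenzyme shares, taken as the percent of the summed TPM of the genes for one step, are a description of each heart and were not tested. Pfkm made up 86.95% ± 1.24 (SD, n = 4) of the phosphofructokinase TPM in chow control hearts and 78.0% ± 5.37 (n = 5) in high-fat renin hearts, with chow renin at 85.7% ± 0.789 (n = 6) and high-fat control at 85.2% ± 1.16 (n = 6). Pfkp took 4.22% ± 0.647 in chow control and 9.95% ± 4.175 in high-fat renin, with a highest heart of 16.1%. The muscle form therefore still made up at least 70.3% of the step in every heart. Pfkfb1 made up 46.35% ± 4.02 of the Pfkfb TPM in chow control and 19.5% ± 10.7 in high-fat renin, where Pfkfb2 took 67.2% ± 12.4. Pfkfb1 stood at 38.0% ± 4.44 in chow renin and 43.3% ± 12.5 in high-fat control. Pfkfb2 took 40.6% ± 5.13 in chow control, 44.2% ± 4.47 in chow renin and 43.7% ± 12.9 in high-fat control. Hearts of high-fat control and high-fat renin overlapped in both shares. Much of the Pfkfb TPM lies outside coding transcripts. Over all hearts, 44.2% of Pfkfb2 lay in a transcript annotated for nonsense-mediated decay (Pfkfb2-205) and 17.9% in a 1-exon retained intron (Pfkfb2-209). Of Pfkfb1, 24.3% and 12.8% lay in the processed transcripts Pfkfb1-207 and Pfkfb1-204, so these shares are not those of the coding messengers. Of Pfkp, 21.3% lay in a transcript annotated as a retained intron (Pfkp-206). Ldhb made up 72.5% ± 0.932 of the lactate dehydrogenase TPM in chow control and 66.15% ± 2.85 in high-fat renin, and Eno3 made up 87.95% ± 1.585 and 82.5% ± 1.67 of the enolase TPM. Between the carriers, GLUT4 made up 93.9% ± 0.491 of the TPM in hearts of chow control, with chow renin at 89.8% ± 0.72, high-fat control at 93.9% ± 0.432 and high-fat renin at 92.7% ± 0.947.

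**Figure D5:**
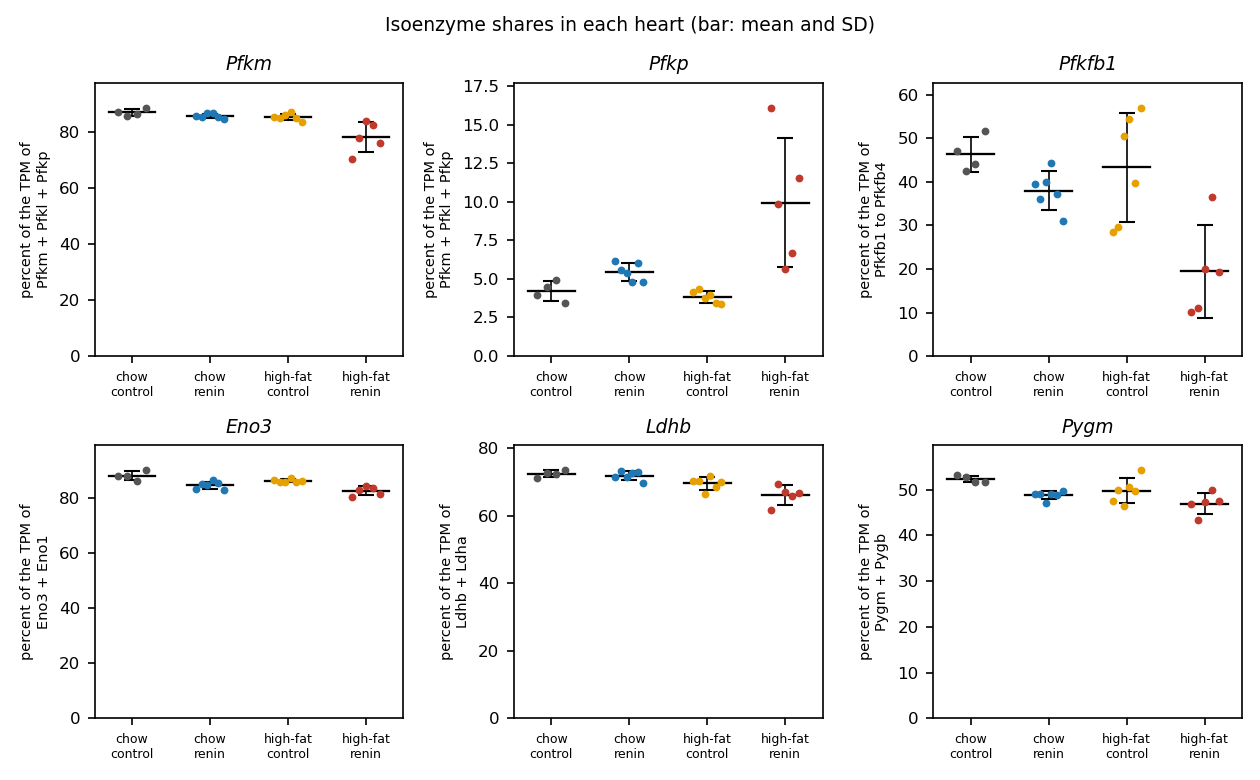
Percent of the summed TPM of a step taken by 1 isoenzyme in each heart (points) by group, with the mean and SD as bars. In high-fat renin the lowest share of Pfkm is 70.3%, the highest of Pfkp is 16.1% and the lowest of Pfkfb1 is 10.0% of its family.

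Single transcripts added detail that gene sums hide. Pkm is spliced into a muscle form and a form of growing cells, which use different copies of 1 exon: Pkm-202 holds the exon at chr9:59675029-59675195 and Pkm-201 that at chr9:59675568-59675734 (GRCm38), each 167 bases long. Pkm-202 took 77.4% and Pkm-201 17.55% of the gene's TPM over all hearts. Of the Ugp2 transcripts, Ugp2-202 was at 69.2, 44.5, 34.5, 25.5 and 63.4 TPM in the high-fat renin hearts and at 32.1, 33.4, 33.1 and 24.1 TPM in chow control, whereas Ugp2-201 was at 46.0, 35.9, 38.9, 33.3 and 42.9 TPM and at 39.3, 39.4, 39.8 and 40.15 TPM. The high hearts of Ugp2 were thus high mainly in Ugp2-202. Of the Pfkp transcripts, the coding one with the largest share (Pfkp-201) reached 24.6, 16.5, 10.9, 11.2 and 17.9 TPM in high-fat renin against 9.66, 8.07, 7.51 and 6.46 TPM in chow control, and a 7-exon transcript annotated as a retained intron (Pfkp-206) reached 22.1, 10.7, 5.16, 5.87 and 13.0 TPM against 0, 3.96, 5.94 and 2.62 TPM. Transcript values are estimates split between overlapping models and were not tested.

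The sequences just upstream of the genes called in high-fat renin versus high-fat control are shown for 6 members, picked after their values were seen: 3 called higher and 3 called lower in that comparison, to set promoters of both directions side by side. They come from RefSeq on GRCm38.p6, which had an entry for 32 of the 34 genes (Slc2a4 and Slc2a3 had none). Each run gives the 250 bases before the RefSeq start nearest the leading transcript, 5′ to 3′ on the gene's strand. That start lay at most 66 bases from the start of the gene's leading transcript for the genes printed. For Pfkfb1 the leading transcript, Pfkfb1-202, held only 30.3% of the gene's TPM over all hearts. The coding transcript Pfkfb1-201 (23.4%) starts upstream of the printed run, at -4506 bases from its end. For Ugp2 the leading transcript is Ugp2-201, while Ugp2-202, in which the high hearts were mainly high, starts 791 bases downstream of the printed run. Capitals mark motif matches on either strand. The GC box was searched as GGGCGG. The CCAAT box was searched by the letters of its name. The hypoxia response core was searched as ACGTG. The first 3 genes rose and the last 3 fell. Of the genes called but not printed, Phka1 (higher) held GC boxes and Gbe1 (higher) held none of these motifs. Pfkm (lower) held only a hypoxia response core.
Pfkp (chr13:6648772-6649021, minus strand): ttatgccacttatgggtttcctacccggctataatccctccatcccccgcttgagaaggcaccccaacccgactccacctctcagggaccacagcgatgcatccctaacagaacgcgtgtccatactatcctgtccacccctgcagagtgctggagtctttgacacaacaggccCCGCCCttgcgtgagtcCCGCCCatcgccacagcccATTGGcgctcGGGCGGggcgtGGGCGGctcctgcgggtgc
Ugp2 (chr11:21371268-21371517, minus strand): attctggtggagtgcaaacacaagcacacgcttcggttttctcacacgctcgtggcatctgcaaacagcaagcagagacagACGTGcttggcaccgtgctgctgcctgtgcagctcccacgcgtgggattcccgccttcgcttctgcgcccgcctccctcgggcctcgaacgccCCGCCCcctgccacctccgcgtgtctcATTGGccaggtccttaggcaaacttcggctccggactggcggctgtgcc
Gyg (chr3:20155117-20155366, minus strand): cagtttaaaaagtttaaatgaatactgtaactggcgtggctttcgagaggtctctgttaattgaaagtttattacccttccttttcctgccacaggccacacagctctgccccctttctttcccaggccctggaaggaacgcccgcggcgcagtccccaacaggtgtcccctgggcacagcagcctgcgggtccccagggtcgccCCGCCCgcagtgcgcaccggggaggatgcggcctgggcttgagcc
Pfkfb1 (chrX:150594178-150594427, plus strand): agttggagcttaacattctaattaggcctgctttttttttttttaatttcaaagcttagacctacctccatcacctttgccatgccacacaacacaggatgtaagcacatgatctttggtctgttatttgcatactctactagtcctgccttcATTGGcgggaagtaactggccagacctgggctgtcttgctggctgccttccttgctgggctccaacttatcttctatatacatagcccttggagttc
Eno3 (chr11:70656926-70657175, plus strand): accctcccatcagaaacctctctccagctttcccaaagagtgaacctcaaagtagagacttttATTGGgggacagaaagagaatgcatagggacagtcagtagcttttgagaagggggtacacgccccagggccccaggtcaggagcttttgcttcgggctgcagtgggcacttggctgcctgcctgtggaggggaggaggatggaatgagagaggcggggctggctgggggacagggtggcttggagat
Ldhb (chr6:142507958-142508207, minus strand): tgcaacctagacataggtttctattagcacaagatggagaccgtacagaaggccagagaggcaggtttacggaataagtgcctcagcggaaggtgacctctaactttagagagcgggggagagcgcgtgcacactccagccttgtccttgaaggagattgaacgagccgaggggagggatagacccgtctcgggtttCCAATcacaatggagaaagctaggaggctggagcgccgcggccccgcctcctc

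Of the 5 genes called higher in that comparison, 4 (Pfkp, Gyg, Ugp2 and Phka1) held a GC box in this window, and of the 4 called lower that had an entry (Pfkm, Pfkfb1, Eno3 and Ldhb) 0 did. A GC box was found in 32.7% of all 32851 RefSeq windows of this length and in 17 of the 32 members. The CCAAT box was found in 2 of the 5 (Pfkp and Ugp2) and in 3 of the 4 (Pfkfb1, Eno3 and Ldhb), against 33.8% of all windows. The hypoxia response core was found in 12 of the 32 members and in 16.6% of all windows. The E-box CACGTG, which contains that core, was found in 3 members (Pfkfb2, Pfkfb3 and Ldha) and in 6.02% of windows. The D-box TTATGTAA and the estrogen-related receptor element TCAAGGTCA were found in no member and in 0.819% and 0.387% of windows. These are letter matches in a short window and were not compared with binding data.

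Around the 34 genes, a wider list of 92 genes of the same pathways (other carriers, GLUT4 traffic, other isoenzymes, glycogen regulators, the pentose phosphate, hexosamine and polyol paths, and regulators) had 83 tested. High-fat renin had 2 of them higher and 4 lower than chow control, which is 7.23% of the 83, where 8.29% of all genes were called. It had 2 higher and 6 lower than high-fat control (9.64%, where 11.1% of all genes were called), and 11 higher and 13 lower than chow renin (28.9%, against 22.6%). Chow renin had 6 higher and 3 lower than chow control (10.8%, against 13.5%), and the interaction called 2 positive and 5 negative (8.43%, against 10.4%). These shares lie near those of all genes. High-fat control had 0 called relative to chow control with edgeR, where 0.0657% of all genes were called. With edgeR, 5 of the 83 had an unadjusted p under 0.05, as did 1668 of the 15216 genes tested. DESeq2 called 1, higher, and its share over all genes is not given here. Ppp1r3c, which brings a phosphatase to glycogen and favours its synthesis, was higher in high-fat renin by a log2 value of 1.14 versus chow control (adjusted p = 0.027 by edgeR; up to 0.081 without any 1 of the 4 chow control hearts or high-fat renin 1 or 2) and by 1.27 versus chow renin (adjusted p = 0.00176).

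Against high-fat control, high-fat renin was lower in Phkg1, the catalytic subunit of the muscle phosphorylase kinase (-1.04, edgeR adjusted p = 0.0181), in Khk, ketohexokinase (-0.48, adjusted p = 0.013) and in Ppp1r3f (-0.46, adjusted p = 0.0377), and higher in Rhoq, a small GTPase of GLUT4 traffic (0.36, adjusted p = 0.00893). Each of these 4 calls was lost in at least 1 fit without 1 heart, that of Phkg1 without high-fat renin 1, 2 or 5 (adjusted p up to 0.0587), that of Khk without high-fat renin 5 (0.0537), that of Rhoq without high-fat renin 1 (0.0547) and that of Ppp1r3f in 8 of 11 fits (all but those without high-fat control 1 or high-fat renin 3 or 4; up to 0.0927). Of the kinase subunits, Phka1 rose and Phkg1 fell in this comparison. Slc2a8, an intracellular carrier, was lower in high-fat renin than in chow control by -0.41 (adjusted p = 0.0181; up to 0.107 without chow control 4 or high-fat renin 5).

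In chow renin, the other pathway genes that rose versus chow control included Eno2, neuronal enolase (1.92 ± 0.17 SE; adjusted p = 1.89e-08 by edgeR), Slc2a13, the myo-inositol carrier of brain (1.76, adjusted p = 2.83e-05), Pgm2l1 (1.06, adjusted p = 1.26e-07), Myc, a growth regulator (1.198, adjusted p = 3.06e-08) and G6pdx, the first enzyme of the pentose phosphate path (0.46, adjusted p = 0.00967; 0.0642 without chow control 4). Eno2 was at 16.65 to 27.65 CPM in chow renin and at most 8.04 CPM in any other heart. Stbd1, a glycogen-binding protein, was lower by -0.69 (adjusted p = 0.0221; up to 0.079 without chow control 1, 2 or 3) and Ppp1r3b, another glycogen-targeting subunit, by -0.48 (adjusted p = 0.0118; up to 0.0825 without chow control 1 or 2). With the central nervous score as covariate none of these 7 genes was called. In high-fat renin versus chow renin, the named pathway genes also included Stbd1 (0.70), Egln3 (0.87), an oxygen-sensing hydroxylase, and Arrdc4 (0.59), a glucose-responsive arrestin, all higher, and Slc16a7 (-0.75), Sort1 (-0.65) and Hkdc1 (-1.47), which was at most 0.710 CPM in any heart, all lower. The call of Sort1 was lost without chow renin 1 or 3 or high-fat renin 1, 2 or 5 (edgeR adjusted p up to 0.0877), and with the central nervous score none of these 6 was called.

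The authors' deposited table gives a comparison named HFD+virus whose reference group is not stated. In it, the authors' deposited table lists Pfkfb1 at a log2 fold change of -1.23 (adjusted p = 2.16e-05), Pfkp at 1.03 (4.87e-06), Slc2a12 at -0.665 (0.00251), Slc2a4 at -0.554 (1.73e-06), Eno3 at -0.516 (4.21e-07) and Ldhb at -0.377 (5.18e-06). The authors' deposited table also lists Pygm at -0.183 with an adjusted p of 0.0298, and Gyg, Gbe1 and Ugp2 at 0.0964, 0.156 and 0.125 with adjusted p values of 0.393, 0.0749 and 0.32.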

How the data were processed

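RNA was measured in 21 hearts. Per the file headers, each deposited table holds estimated counts per transcript (expected counts) and TPM, in the layout Salmon writes; the submitters' processing notes name Salmon 1.10.2, DESeq2 1.40.2, GRCm38 and mm10, with no role given. The deposited gene matrix gave gene names and the authors' log2 fold change and adjusted p-value; its 21 per-sample columns were not used.

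Transcripts were matched to GENCODE M21 (GRCm38) by identifier without version (98.0% matched), a choice made after results with versions required (97.6%) had been seen, and estimated counts were summed per gene and rounded. TPM were summed per gene. edgeR 4.0.16 (R 4.3.3) fitted 1 term per group after filterByExpr and TMM, with robust quasi-likelihood F tests, Benjamini-Hochberg adjustment over 15216 genes and a threshold of 0.05. The fit was tested on simulated data. DESeq2 1.42.0, other scalings, filters, covariates, a replicate block and left-out hearts were alternatives; the cardiomyocyte covariate and the fit without the 5 atrial hearts were chosen after seeing the data. CPM carries TMM factors. P-values measure the spread between these hearts. No libraries of a group agreed within sampling noise (chi-square per degree of freedom from 3.5 to 53.99). High-fat control 6 stood at 35.56 to 49.84 against the others of its group, and high-fat renin 1 at 24.03 to 53.99. Near copies were found with blastn 2.17.0.

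Members and lists were chosen with earlier results of these data known. All 34 members are described; those called in any comparison get values per heart (groups of 6 by lowest, median and highest, or range), the others a range. Of other pathway genes called, the 20 with the largest fold change could be named. Some genes of the wider list are counted but not reported by name here.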

Additional observations from a re-analysis of the deposited data

Results flagged for a closer look

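In 5 of 136 sets of 1 gene in 1 group, 1 heart stood apart from the rest by Dixon's test at 95%, where chance flags about 1 in 20 sets. Pfkfb2 was at 57.7 CPM in chow renin 6, the highest of its group, and Pfkfb4 was at 4.63 CPM in chow renin 2, also the highest. Aldoa was at 1643 CPM in high-fat control 3 and Pkm at 1125 CPM in chow control 3, each the lowest of its group. Pygb was at 957 CPM in chow control 4, the highest.

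The effect of renin differed between the diets, by edgeR's test of the interaction, in 8 genes: Slc2a3 (-0.74), Hk1 (0.44), Pfkp (0.95), Aldoc (-2.45), Pgk1 (0.31), Gyg (0.52), Gbe1 (0.48) and Ugp2 (0.70), as log2 differences. Slc2a3 and Aldoc were higher with renin on chow only, and Pfkp, Gyg, Gbe1 and Ugp2 were higher with renin on the high-fat diet only, as far as calls go.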

How the results depend on the processing

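Of 53 member and comparison pairs called, 30 were called in every fit without 1 heart and 0 under every alternative, since the score covariates ended calls in all comparisons. Counts of called members over the fits without 1 heart ranged from 6 to 11 in high-fat renin versus chow control, 6 to 10 in chow renin versus chow control, 0 to 1 in high-fat control versus chow control, 6 to 11 in high-fat renin versus high-fat control, 8 to 20 in high-fat renin versus chow renin and 4 to 10 in the interaction. The single call of high-fat control became 2 with DESeq2 and 0 with RLE factors, no filter, only the groups compared, the replicate block, the central nervous, atrial or cardiomyocyte score, or without the 5 atrial hearts. With only the groups compared, counts were 5 in high-fat renin versus chow control, 11 in chow renin versus chow control and 3 in high-fat renin versus high-fat control. In high-fat renin versus chow renin the count was 10 with no filter, 8 with the clock score and 9 without the 5 atrial hearts. Without those hearts the interaction had 5. The central nervous score left 0 in chow renin versus chow control, in high-fat renin versus chow renin and in the interaction; the clock and cardiomyocyte scores each left 0 in high-fat renin versus either control group, and the cardiomyocyte score left 2 in chow renin versus chow control.

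Reversed signs all came with the central nervous score: in chow renin versus chow control Slc2a3 (-0.30), Slc2a13 (-0.11) and Ppp1r3b (0.049); in high-fat renin versus chow renin Slc2a3 (0.01), Slc2a4 (0.043), Pfkfb2 (-0.011), Tpi1 (-0.013), Ldha (-0.05), Sort1 (0.19) and Ppp1r3f (0.49); in the interaction Slc2a3 (0.42) and Slc2a13 (0.22). The cause was not tested. Over all genes, upper-quartile in place of TMM factors moved the split of higher and lower calls from 1491 and 1949 to 844 and 2247 in high-fat renin versus chow renin, from 1537 and 511 to 1625 and 264 in chow renin versus chow control, and from 478 and 1111 to 281 and 1200 in the interaction. Same-numbered hearts did not deviate together (correlations from -0.226 to 0.421, median 0.0775), so the numbers do not pair the samples; with the replicate block the counts were 11, 8, 0, 10, 19 and 9 in the order of the ranges above.

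With transcript versions required to match, the setting run first, the same members were called in each comparison (10, 7, 1, 10, 17 and 8).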
